A study of Mus musculus with 28 samples.

Results

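The microRNA pool of the meiotically arrested mouse testis was measured in 4 small-RNA libraries of the C57BL/6 strain, 2 labelled Prdm9 KO and 2 labelled Hop2 KO, out of 28 samples in the study. PRDM9 methylates histones and thereby sets where meiotic DNA breaks form, and HOP2 assists strand exchange at those breaks. Loss of either arrests spermatocytes in meiotic prophase, so the Hop2 KO testis serves here as the arrested comparison. Small RNA came from whole testes, and the labels give neither the animals' age nor whether the libraries of a genotype came from separate animals. The p-values below then measure only the spread between these libraries, and wild-type microRNA was not analysed here. The table held 2520 lines, each a mature microRNA on a precursor. One line was kept for each of 1915 mature names, the line with the highest level among those whose precursor carries the name.

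MicroRNAs are RNAs of about the length of the sequences printed below, cut from hairpin precursors by Drosha and Dicer. A hairpin has a 5p and a 3p arm, and usually 1 of them is kept in an Argonaute protein and the other is degraded. The kept strand finds its targets mainly through its seed, bases 2 to 8 from the 5′ end, so microRNAs with the same seed form a family with overlapping targets. In the mouse testis, germ cells need Dicer to complete spermatogenesis, and a rapidly evolving cluster on the X chromosome is expressed there.

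Sequences of the microRNAs on which the results turn are given 5′ to 3′ with the seed in capitals. They were taken from RefSeq (GRCm38.p6), where 1623 of the 1915 names had an entry. miR-143-3p, the most abundant name, had no entry and is not printed. The first set holds other abundant microRNAs, to show that these leaders of the pool carry different seeds.
miR-881-3p: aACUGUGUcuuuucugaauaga
miR-21a-5p: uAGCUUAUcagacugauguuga
let-7g-5p: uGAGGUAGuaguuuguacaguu
miR-10b-5p: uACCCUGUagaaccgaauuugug
miR-30a-5p: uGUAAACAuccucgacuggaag
miR-470-5p: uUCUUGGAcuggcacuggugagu
miR-101a-3p: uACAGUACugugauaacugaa
miR-26a-5p: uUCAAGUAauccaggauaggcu
miR-148a-3p: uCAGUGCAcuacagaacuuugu

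The second set holds other members of the X-linked cluster, to show that near copies share a seed and the others do not.
miR-871-3p: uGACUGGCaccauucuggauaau
miR-465c-5p: uAUUUAGAauggcgcugaucug
miR-465b-5p: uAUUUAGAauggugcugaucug
miR-465c-3p: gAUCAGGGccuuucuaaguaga
miR-465b-3p: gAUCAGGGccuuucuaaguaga
miR-741-3p: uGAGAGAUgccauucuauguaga
miR-743b-3p: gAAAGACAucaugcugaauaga
miR-883a-3p: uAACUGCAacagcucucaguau
miR-883b-3p: uAACUGCAacaucucucaguau
miR-878-5p: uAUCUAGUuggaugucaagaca

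The third set holds the microRNAs that came closest to a difference between the genotypes, with the relatives of miR-99a-5p and miR-20a-5p that share their seeds.
miR-135a-5p: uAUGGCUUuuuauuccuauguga
miR-99a-5p: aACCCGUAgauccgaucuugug
miR-100-5p: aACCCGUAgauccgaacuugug
miR-99b-5p: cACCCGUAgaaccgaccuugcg
miR-20a-5p: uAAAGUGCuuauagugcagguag
miR-17-5p: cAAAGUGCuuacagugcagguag
miR-200c-3p: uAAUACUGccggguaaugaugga
miR-503-5p: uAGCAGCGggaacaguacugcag
miR-744-5p: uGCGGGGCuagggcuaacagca
miR-379-5p: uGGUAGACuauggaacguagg
let-7f-5p: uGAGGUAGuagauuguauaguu

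Levels are the authors' TPM, the abundance of a microRNA line scaled by the authors so that all lines of a library sum to nearly the same total, and a name entered the tests at a mean of at least 10. That left 339 names, 172 of a 5p arm, 151 of a 3p arm and 16 without an arm in the name. Values of the 4 libraries are given in the order Prdm9 KO 1, Prdm9 KO 2, Hop2 KO 1 and Hop2 KO 2 throughout. The libraries held 1420, 1375, 1420 and 1317 names above 0. The sources used here state no read totals. In the authors' deposited comparison table, 1 unit of TPM corresponded to a median of 140 normalised counts over the tested names. If these counts stand for reads, counting error at the minimum level was small beside the spread between libraries. Hop2 KO 2 stood apart from the other libraries. Pearson's r over the 339 log2 levels was between 0.962 and 0.968 for pairs with Hop2 KO 2 and between 0.980 and 0.987 for pairs without it, a description across names and not a test. In Hop2 KO 2, 79 names (23.3%) lay more than 1 log2 unit from the mean of the other libraries, against 31, 14 and 15 names in the other libraries. It held the lowest of the 4 values for 183 of the 339 names. Results that rest on Hop2 KO 2 are therefore given with and without it.

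A few microRNAs made up most of the pool in all 4 libraries. The 10 most abundant names held 52.8%, 57.4%, 54.4% and 63.4% of the summed level, and between 6 and 9 names were enough to reach 50% of it. Between 42 and 55 names made up 90% of the pool. When all lines of a name were added up instead of keeping the highest, the mean share of the 10 most abundant names was 48.9% in place of 57.0%.

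miR-143-3p led the pool with 130986, 168589, 115545 and 210103 TPM, a mean share of 18.9%. It is made from a hairpin beside miR-145a and is best known from smooth muscle, which surrounds the seminiferous tubules and the vessels of the testis. miR-881-3p of the X-linked cluster followed with 77870.3, 66809.5, 71496 and 96419 TPM. For both names, Hop2 KO 2 held the highest value and the other Hop2 KO library lay within or below the Prdm9 KO values. In bulk tissue, fewer cells of a type and less RNA per cell cannot be told apart.

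miR-21a-5p, a microRNA of many growing tissues within the span of Vmp1 (chr11:86584067-86584158), stood at 39837, 40819.8, 57063 and 29129.8 TPM. let-7g-5p, a let-7 member inside Wdr82, reached 30807, 47614, 41019.5 and 33784.5 TPM. miR-10b-5p, from the Hoxd genes, reached 32043, 43165, 38179.7 and 38639.9 TPM. The 2 genotypes overlapped for each of these 3 names, and for miR-21a-5p the Hop2 KO libraries held both the highest and the lowest value.

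miR-30a-5p reached 29055, 23920.1, 28803 and 35019.6 TPM. miR-470-5p, the second leader from the X-linked cluster, reached 34287, 19320.5, 22396 and 28857 TPM. miR-101a-3p, which is known to repress the histone methyltransferase gene Ezh2, reached 23015, 21454.5, 18139 and 23615 TPM. None of these 3 separated the genotypes. Among the 10 leaders, miR-26a-5p differed most between libraries of 1 genotype, at 16887, 22146, 30847 and 11352 TPM. miR-148a-3p, known to act on the DNA methyltransferase gene Dnmt1, stood at 7096, 17485, 17099.6 and 34524 TPM. Its middle libraries were 1 of each genotype.

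**Figure D1:**
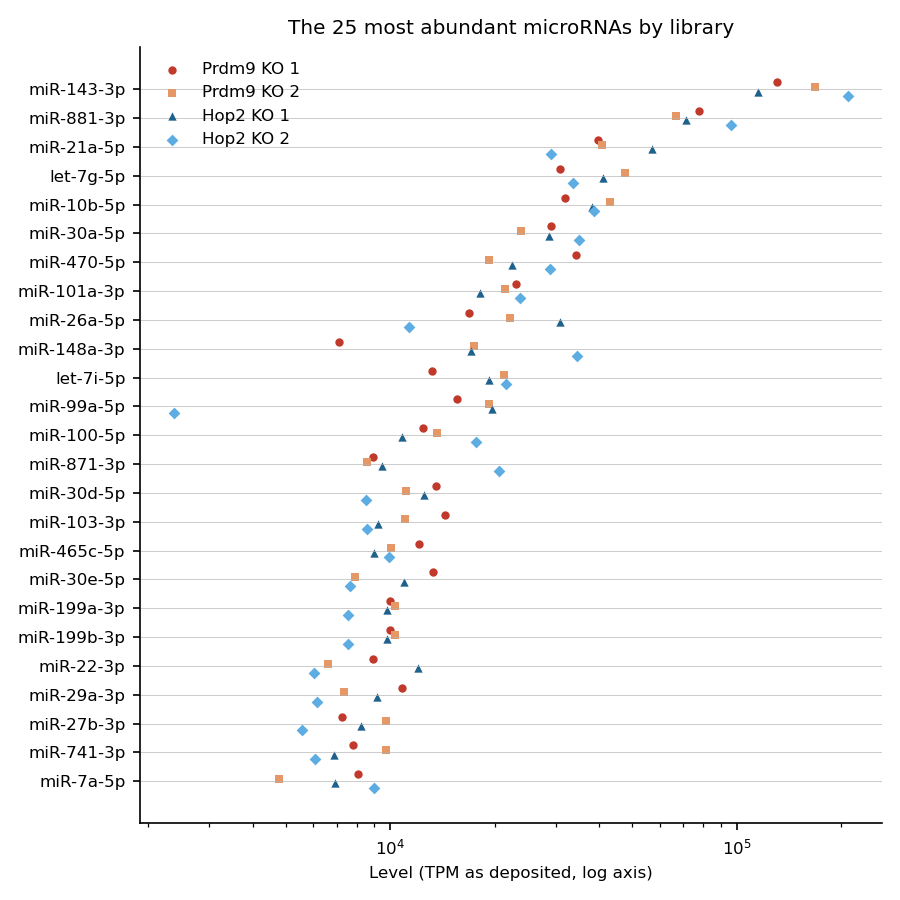
Level in deposited TPM (log axis) of the 25 microRNAs with the highest mean, 1 marker per library. miR-143-3p lies between 115545 and 210103 TPM, and the widest gap between libraries is that of miR-99a-5p, at 2369 TPM in Hop2 KO 2 and between 15571 and 19716 TPM in the others.

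Among the names with a sequence, which held 79.4%, 76.3%, 82.0% and 72.4% of the pool, those starting with U made up 64.7%, 68.0%, 67.9% and 67.3%. miR-143-3p, at 16.4%, 20.5%, 14.3% and 24.6% of the pool, had no sequence entry. It is left out of the shares by first base and by length, which were taken from the sequence entries and not from reads. Argonaute proteins are known to prefer a U at the 5′ end. Counted by name, 50% of the 288 tested names with a sequence and 40.2% of all 1623 matched names began with U. The abundant microRNAs were thus richer in a first U than the list of names. Names with a sequence of 22 bases made up 65.9%, 68.4%, 71.5% and 67.2% of the same part of the pool. Arm names split it nearly evenly, with 5p names at 47.5%, 47.2%, 51.7% and 40.6% of the whole pool. The 5p share was lowest in Hop2 KO 2, where miR-143-3p and miR-881-3p, both 3p names, were highest.

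The listed members of the X-linked testis cluster together held 24.8%, 19.4%, 20.8% and 22.8% of the pool, with Prdm9 KO libraries at both ends of the range. Its core, as counted here, lay at chrX:66777256-66829280 (GRCm38.p6), with 15 precursors in 52.0 kb and no protein-coding gene annotated around the tested names. The listed miR-743a (miR-743a-3p at chrX:66776760-66776781) and miR-465a (miR-465a-3p at chrX:66839063-66839084) lie near its ends and were not counted in it. The list also holds miR-547 and miR-201, which lie apart from the core at chrX:67988096-67988451. It leaves out miR-471, which is counted in the core. Of the core's 30 names, 26 entered the tests. Their mean levels ran from 23.975 TPM for miR-465d-3p to 78149 TPM for miR-881-3p. miR-881-3p and miR-470-5p alone held 61.0% of the level of the core. The highest and the lowest tested name of the core thus differed 3259.6-fold.

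The core carried 23 different seeds among 26 names, and 19 of the 26 began with U. Within the core, seeds were shared only by near copies, as the printed sequences show. Of the listed members not counted in the core, miR-743a-5p carries the seed AUUCAGA of miR-871-5p, which comes from a different hairpin. miR-743a-3p carries the seed AAAGACA of miR-743b-3p. miR-465b-5p differed from miR-465c-5p by C13U, and miR-883b-3p from miR-883a-3p by G12U, with positions counted from the 5′ end and the base of the second-named microRNA first. miR-465c-3p and miR-465b-3p were identical in sequence, so their levels of 2390 and 2405 TPM cannot be told apart as products of separate hairpins.

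Below the leaders, miR-871-3p stood at 8903, 8538, 9476 and 20590.8 TPM, with Hop2 KO 2 alone above 10000 TPM. miR-465c-5p reached 12126, 10075.7, 8956 and 9942 TPM, and both Prdm9 KO values lay above both Hop2 KO values. miR-741-3p reached 7819, 9696, 6886 and 6046 TPM with the same order of genotypes. miR-743b-3p, at 7687, 6220.2, 9799 and 4421 TPM, overlapped. Hop2 KO 2 held the lowest value for 19 of the 26 tested names of the core and the highest for 4. Over all 339 tested names, Hop2 KO 2 held the lowest value for 183 and the highest for 63. Names of the core thus lay at both ends in that library, as did the tested names as a whole. Whether the core differed from all names in this was not tested.

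**Figure D2:**
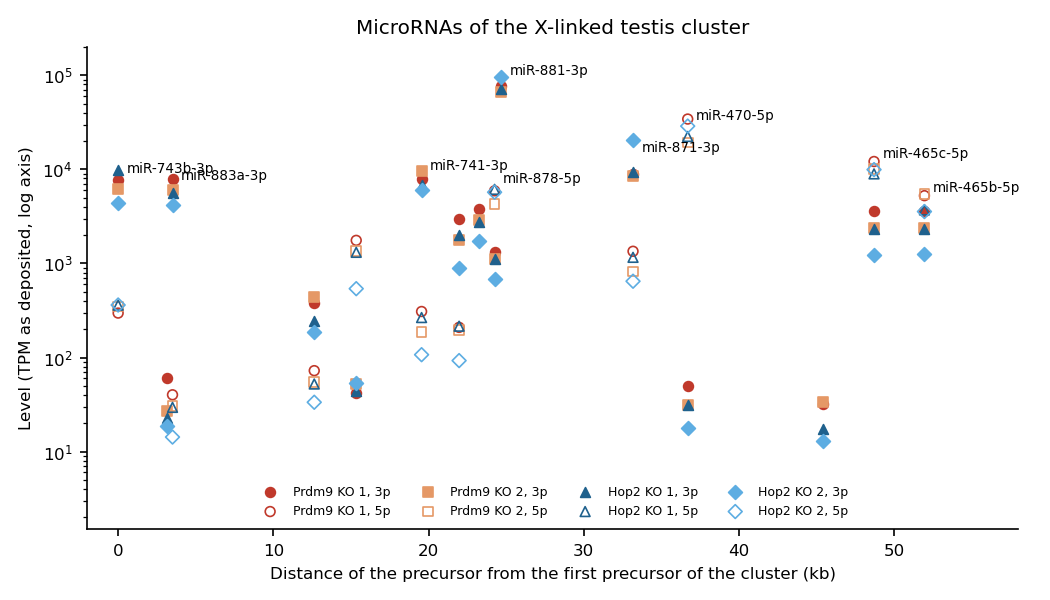
Level in deposited TPM (log axis) of the 26 tested microRNAs of the X-linked core against their precursor's distance in kb from the first one. Filled markers are 3p and open markers 5p names, 1 marker per library, and levels span from 23.975 TPM for miR-465d-3p to 78149 TPM for miR-881-3p.

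Grouping the 288 sequences by seed gave 221 seeds, of which 39 were shared by at least 2 names. These shared seeds covered 106 names (36.8%). The let-7 seed, GAGGUAG, carried by 9 tested names including miR-98-5p, summed to 7.31%, 10.6%, 10.8% and 8.89% of the pool. let-7 microRNAs are known to restrain growth genes and Lin28a in differentiating cells. Prdm9 KO 1 was the lowest library for their sum, and the other Prdm9 KO library lay between the Hop2 KO libraries. The miR-30 seed, GUAAACA, carried by 3 tested names with a sequence, held 5.52%, 4.03%, 5.08% and 5.14%. The family members miR-30d-5p and miR-30b-5p had no sequence entry and are not in this sum. All 12 names of the miR-30 family, both arms included, held 7.56%, 5.64%, 6.92% and 6.53%. The seed CAGUGCA of miR-148a-3p, miR-148b-3p and miR-152-3p held 1.61%, 2.98%, 2.87% and 4.90%, following miR-148a-3p.

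The seed ACCCGUA joined miR-99a-5p, miR-100-5p and miR-99b-5p and held 3.88%, 4.32%, 4.05% and 2.83%. miR-99a-5p and miR-100-5p differ by a single base, U16A with the base of miR-99a-5p first, and come from chromosomes 16 and 9. Hop2 KO 2 held the lowest of the 4 values for miR-99a-5p and the highest for miR-100-5p, 17728 TPM against a range of 10806 to 13660 TPM in the other libraries. These opposite positions within a seed were seen in 1 library and have no replicate.

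Levels were compared between genotypes with limma on log2(TPM + 1), with Benjamini-Hochberg adjustment over all 339 names. No name passed an adjusted p of 0.05 (percent called 0), and 14 names (4.13%) had an unadjusted p under 0.05, 11 higher and 3 lower in Prdm9 KO. The authors' deposited comparison table, made with DESeq2, also listed 0 of its 2070 lines under an adjusted p of 0.05 and 69 under an unadjusted 0.05. The median standard error of a log2 difference was 0.51, which gives a 95% interval of ± 1.00, so differences of 2.01-fold lay within it for a name of median precision. Only 21 of 339 intervals lay wholly between -1 and 1. These intervals are not adjusted for the number of names, so passing the adjusted threshold takes a larger difference than they show. Differences within these intervals were not detectable with 2 libraries per genotype, and the test does not show that the genotypes are alike.

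The median log2 difference over the tested names was 0.17, with 217 names (64%) higher in Prdm9 KO. Scaling by median ratios moved that median to -0.03 and quantile normalization to 0.01, and without Hop2 KO 2 it was 0.01. Differences below are therefore read against the median of all names. The 2 libraries of Prdm9 KO did not overlap with those of Hop2 KO for 104 names (30.7%), 68 with Prdm9 KO higher (20.1%) and 36 with it lower (10.6%). An exact permutation test of 2 against 2 libraries cannot give a two-sided p under 0.333.

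**Figure D3:**
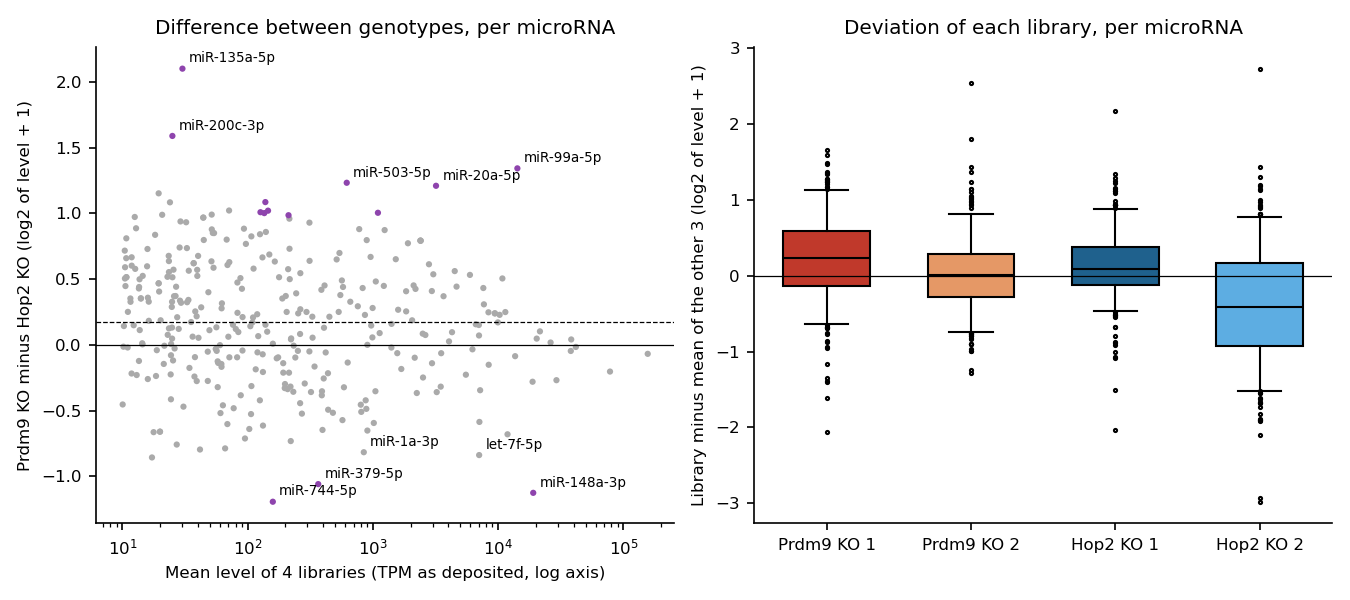
Left, the difference between genotypes on the log2(TPM + 1) scale against mean TPM (log axis) for 339 microRNAs, with unadjusted p under 0.05 in purple, the median of 0.17 dashed and the named microRNAs labelled. Right, each library minus the mean of the other 3 per microRNA (line, median; box, quartiles; whiskers, 5th to 95th percentile), where Hop2 KO 2 has the lowest median, -0.41, and the widest box.

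miR-135a-5p had the smallest p. Its levels were 39.3 and 60.1 TPM in Prdm9 KO and 9.94 and 11.2 TPM in Hop2 KO, so every Prdm9 KO value was above every Hop2 KO value. The log2 difference was 2.10 (SE 0.60), with a limma adjusted p of 0.157. It passed the threshold in limma without the mean-variance trend, with an adjusted p of 0.0385, and its difference was 2.18 without Hop2 KO 2. The authors' deposited table listed it with a log2 value of 1.84 and an adjusted p of 0.0775, the smallest of that table. The header of that table does not name the groups, and over the tested names its log2 values minus the differences computed here had a median of -0.40. The hairpin of its highest line lay at chr9:106154124-106154213 within the span of Glyctk, and another locus gives the same mature RNA.

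miR-20a-5p, of the growth-promoting miR-17-92 cluster on chromosome 14, stood at 5415, 3386, 2686 and 1276 TPM without overlap of the genotypes. Its log2 difference was 1.21 (SE 0.46), adjusted p 0.724 by limma, and 0.67 without Hop2 KO 2. miR-503-5p, an X-linked microRNA that represses cyclin genes, stood at 1188, 537, 529.9 and 217 TPM, with a log2 difference of 1.23 (SE 0.48) and 0.59 without Hop2 KO 2. In both cases Prdm9 KO 1 and Hop2 KO 2 lay at the ends, and the 2 middle libraries lay close together.

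miR-200c-3p, a keeper of epithelial identity that represses Zeb1 and Zeb2, was low throughout at 13.8, 67.4, 9.83 and 9.30 TPM, and its log2 difference of 1.59 (SE 0.62) rested on Prdm9 KO 2. It was 0.48 without that library. miR-99a-5p had a log2 difference of 1.34 (SE 0.45) from 15571, 19285, 19716 and 2369 TPM. Without Hop2 KO 2 the difference was -0.19, with the sign turned. The remaining 3 libraries thus held nearly equal levels of miR-99a-5p.

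Among names lower in Prdm9 KO, miR-148a-3p had a log2 difference of -1.13 (SE 0.45) of -0.62 without Hop2 KO 2 and of -0.47 without Prdm9 KO 1. miR-744-5p, made from the Map2k4 locus, stood at 68.0, 129, 260.2 and 178 TPM, and both Prdm9 KO values were below both Hop2 KO values. Its log2 difference was -1.19 (SE 0.51), and -0.74 without Prdm9 KO 1. miR-379-5p, the first hairpin of the large microRNA cluster of the imprinted Dlk1-Dio3 region, stood at 165, 324, 422 and 553 TPM, also without overlap, with a log2 difference of -1.06 (SE 0.49) and of -0.58 without Prdm9 KO 1.

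let-7f-5p stood at 5367, 4668, 10641 and 7524 TPM, a log2 difference of -0.84 (SE 0.46) that was -1.09 without Hop2 KO 2. miR-1a-3p, known from heart and skeletal muscle, stood at 733, 456, 1502 and 692 TPM, and its genotypes overlapped. Its log2 difference of -0.82 (SE 0.48) was -0.26 without Hop2 KO 1. Of the 4 tested striated muscle markers, miR-1a-3p was the 1 that was lower in Prdm9 KO and 3 were higher, against 64% of all names. The adjusted p of the 9 names named after miR-135a-5p lay between 0.541 and 0.963 by limma.

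When Hop2 KO 1 was left out, Hop2 KO 2 stood alone for its genotype, and the residual spread came from the 2 Prdm9 KO libraries only, with the lone library assumed to vary like them. limma then called 16 names, 14 higher and 2 lower in Prdm9 KO, which compares 1 library with a pair and not the genotypes. With Prdm9 KO 1, Prdm9 KO 2 or Hop2 KO 2 left out, limma called 0, and 3, 10 and 9 names had an unadjusted p under 0.05. The called names, listed after their values were seen, included miR-99a-5p with a log2 difference of 2.87, miR-126a-3p with 1.64, miR-223-3p with 1.75 and miR-142a-3p with 1.94. miR-151-5p and miR-148a-3p were the names called lower, at -2.31 and -1.63. Against Hop2 KO 1 alone, 9 of the 16 differences had the same sign and 7 the opposite one. miR-135a-5p, among the 16, differed by 2.02 from Hop2 KO 2 and by 2.18 from Hop2 KO 1, while the other 15 names differed from Hop2 KO 1 by between -1.32 and 1.26.

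Families and clusters were described by the number of tested names on each side and their median log2 difference, beside the median of 0.17 over all names. The X-linked testis list counted here includes miR-547 and miR-201 but not miR-471. Of its tested names, 25 of 31 were higher in Prdm9 KO, against 64% of all names, with a median of 0.50. Of these 31 names, 20 had no overlap between genotypes, against 30.7% of all names, 17 higher and 3 lower in Prdm9 KO. miR-465a-3p, miR-465b-3p and miR-465c-3p have the same sequence and each count among the 17, so the names are not all separate measurements. None of the 31 passed the test. The median lay 0.33 above that of all names, and 0.23 above it without Hop2 KO 2. The summed level of the list did not follow this, since the most abundant member, miR-881-3p, had a log2 difference of -0.20.

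In the growth-promoting miR-17-92 cluster and its paralogue miR-106b-25, 10 of 12 tested names were higher in Prdm9 KO, with a median of 0.74. Of the 12 names, 6 had no overlap, each higher in Prdm9 KO, against 20.1% of all names in that direction. Their share of the pool was 2.35%, 1.51%, 1.33% and 1.06%. miR-92a-3p, the most abundant of them, stood at 6195, 4573, 3697 and 4147 TPM, and miR-17-5p at 1795, 1119, 947 and 526 TPM. Both were without overlap, while miR-25-3p at 1496, 1289, 1259 and 1574 TPM was not. The median stood 0.56 above that of all names, 0.39 above it without Hop2 KO 2 and 0.10 above it without Prdm9 KO 1, where 9 of 12 names were higher.

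The let-7 family went the other way, with 11 of 15 tested names lower in Prdm9 KO and a median of -0.32, which is 0.49 below that of all names. Without Prdm9 KO 1, 8 of 15 names were lower, with a median of -0.14, and this minus the median of all names was -0.25. Of the 15 names, 7 had no overlap, all lower in Prdm9 KO, against 10.6% of all names in that direction. let-7c-5p stood at 4374, 7152, 8802 and 8008 TPM, and let-7i-5p at 13220.1, 21274, 19276 and 21523 TPM. let-7a-1-3p and let-7c-2-3p are identical in the table and count as 2 of the 7 names. None of the 15 passed the test.

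The Dlk1-Dio3 cluster, expressed from the maternal chromosome, had 15 of 22 tested names lower in Prdm9 KO and a median of -0.13. miR-127-3p, which is antisense to Rtl1, stood at 767, 843, 1044 and 1413 TPM, and miR-541-5p at 421, 311, 563 and 462 TPM, both lower in Prdm9 KO without overlap. In all, 7 names of the cluster had no overlap, each lower in Prdm9 KO, against 10.6% of all names in that direction and 30.7% in either. The share of the pool was 0.389%, 0.394%, 0.497% and 0.504%. The Sfmbt2 cluster, with the miR-466, miR-467 and miR-669 names, held 0.123%, 0.0682%, 0.0731% and 0.0475%, with 17 of 17 tested names higher in Prdm9 KO, 16 of 17 under median-ratio scaling and 14 of 17 without Hop2 KO 2. Without Prdm9 KO 1, 12 of 17 were higher, and the median went from 0.51 to 0.05, which minus that of all names is -0.07, so the sign of that relative value turned. Its most abundant names were miR-669c-5p, at 120.4, 77.3, 81.7 and 84.8 TPM, and miR-467e-5p, which is given with its host below. Members share reads through near-identical sequences, so they are not 17 separate measurements.

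The miR-34 and miR-449 family, which meiotic and later germ cells express and need, held 1.51%, 0.841%, 0.944% and 1.03%. miR-34c-5p stood at 9588, 5423, 6001 and 7028 TPM and miR-34b-5p at 1489, 876, 949.5 and 1213 TPM, with the Prdm9 KO libraries at both ends. miR-202-5p, known from the gonads, stood at 3516, 3224, 2656 and 2421 TPM, higher in Prdm9 KO without overlap at a log2 difference of 0.41 (SE 0.46), and miR-202-3p at 34.8, 18.4, 20.5 and 25.9 TPM. The miR-290 cluster of pluripotent cells had a single name above the minimum, miR-293-5p, at 14.5, 9.25, 10.8 and 17.4 TPM. The pool thus held microRNAs known from the testis, while miR-122-5p, which marks liver, stayed under 1 TPM in all 4 libraries and miR-122-3p was listed at 0.

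Marker lists of other testis cell types moved with single libraries. Endothelial miR-126a, 2 of 2 names above the minimum, summed to 0.474%, 0.405%, 0.632% and 0.135% of the pool, and miR-126a-3p stood at 3406, 2993, 4717 and 1027 TPM. The other arm, miR-126a-5p, stood at 383, 332, 405 and 129 TPM, so both arms were lowest in Hop2 KO 2. Immune markers, 7 of 13 names above the minimum, summed to 0.284%, 0.363%, 0.305% and 0.141%, and red blood cell markers, 5 of 8 names, to 0.0218%, 0.0262%, 0.0205% and 0.0140%, with miR-451b listed at 0. Their leading names were miR-146a-5p at 842, 1469, 1063 and 460.0 TPM, miR-146b-5p at 919, 963, 874 and 556 TPM, miR-144-3p at 72.3, 60.8, 61.2 and 21.4 TPM and miR-451a at 52.5, 72.5, 49.0 and 31.6 TPM. Mesenchyme markers, 6 of 6 names and led by miR-199a-3p, summed to 2.85%, 2.87%, 2.73% and 1.97%. Hop2 KO 2 was the lowest library for the sum of each of these 4 lists, as it was for 183 of all 339 names. Not every member followed. The red blood cell markers miR-486a-5p and miR-486b-5p were lowest in Prdm9 KO 1, at 0.00224% and 0.00238% of the pool, against 0.00338% and 0.00362% in Hop2 KO 2. The summed smooth muscle markers, 4 of 5 names, were highest in Hop2 KO 2 at 24.7% against 16.6%, 20.7% and 14.5%. That sum was almost entirely miR-143-3p, at 24.6% in Hop2 KO 2. Of its other members, miR-143-5p at 429, 447, 420 and 255 TPM and miR-145a-5p were lowest in Hop2 KO 2, and miR-145a-3p lay within the range of the other libraries. The part of these cell types in the differences named above was not tested.

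**Figure D4:**
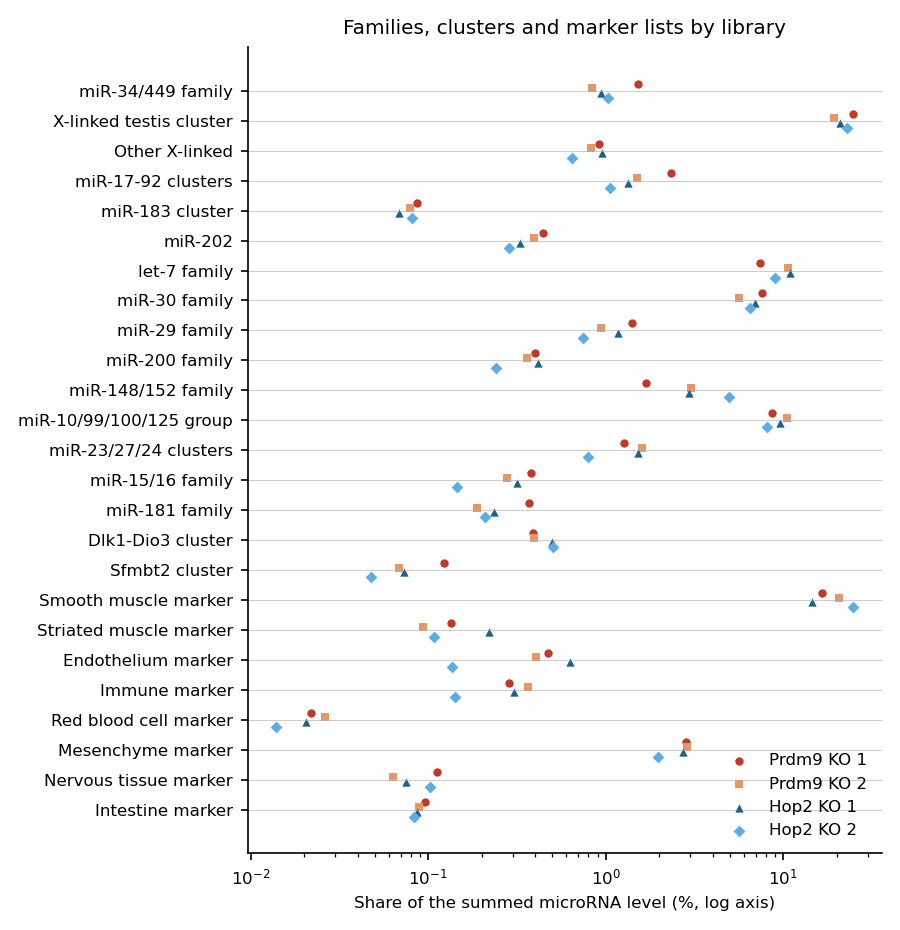
Share of the summed microRNA level (%, log axis) of each family, cluster or marker list with at least 2 tested names, 1 marker per library. The X-linked testis cluster list lies between 19.4% and 24.8%, and the endothelium list ranges from 0.135% in Hop2 KO 2 to 0.632% in Hop2 KO 1.

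Arm usage was measured for 238 hairpin names whose 5p and 3p levels summed to a mean of at least 10. In 129 of them the 5p arm was the larger in all 4 libraries, in 93 the 3p arm was, and in 16 the larger arm differed between libraries. The larger arm held a median of 97.7% of the hairpin's level, and in 169 hairpins (71.0%) it held over 90%. Strand choice was thus nearly complete for most hairpins, with 40 hairpins under 75%. The leaders were among the most one-sided, with miR-21a at a 5p share between 99.96% and 99.98% and miR-143 at a 5p share between 0.121% and 0.362%. miR-881-5p was listed at 0.08 TPM or less beside its abundant 3p partner.

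Hairpins of the X-linked list leaned to the 3p arm. Of 18 such hairpins, 12 had the 3p arm larger in all libraries and 5 the 5p arm, against 39.1% and 54.2% of all hairpins, a description that was not tested. miR-465a was the mixed one, with a 5p share of 42.2%, 47.9%, 47.5% and 54.3%. Its relatives miR-465b, at 59.1%, 69.5%, 61.4% and 74.0%, and miR-465c, at 77.0%, 80.8%, 79.5% and 88.9%, leaned to the 5p arm. Since the 3p arms of the miR-465 hairpins share their sequence, their arm shares depend on how the authors assigned those reads.

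The arm ratio, log2 of (5p + 1) over (3p + 1), was compared between genotypes with limma. No hairpin of 238 passed an adjusted p of 0.05 (percent called 0), the smallest being 0.858, and 13 (5.46%) had an unadjusted p under 0.05. For 76 hairpins (31.9%) the genotypes did not overlap. With Hop2 KO 1 left out, limma called 10 hairpins, 7 toward 5p and 3 toward 3p in Prdm9 KO, again from 1 Hop2 KO library with the spread of the Prdm9 KO pair. With Prdm9 KO 1, Prdm9 KO 2 or Hop2 KO 2 left out, limma called 0, with 3, 9 and 7 hairpins at an unadjusted p under 0.05.

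miR-145a, the partner of miR-143, had the mean arm ratio nearest to balance among 69 hairpins with a summed level of at least 1000 TPM, averaged over the libraries. In 3 of the 4 libraries, miR-465a was nearer to balance. The 5p share of miR-145a was 54.9% and 64.3% in Prdm9 KO and 38.8% and 37.2% in Hop2 KO. Its larger arm was thus 5p in both Prdm9 KO libraries and 3p in both Hop2 KO libraries. The log2 difference of the miR-145a arm ratio was 1.27 (SE 0.47), with a limma adjusted p of 0.858, and 1.22 without Hop2 KO 2. miR-145a-3p stood at 583, 338, 854 and 511 TPM and miR-145a-5p at 710.2, 608, 542 and 302 TPM, so the arms did not keep 1 ratio across libraries.

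The other hairpins with the smallest p had a scarce second arm. miR-135a had a 5p share of 97.8%, 95.9%, 95.7% and 89.5%, with a 3p arm of at most 2.57 TPM. miR-744 and miR-379 had 5p shares above 94% in every library and 3p arms of at most 7.15 TPM. In miR-223, a microRNA of myeloid cells, the 5p share was 6.52%, 9.70%, 14.3% and 21.2%. miR-223-3p had the reverse order, at 167, 157, 134 and 47.5 TPM, while miR-223-5p stayed between 11.7 and 22.5 TPM.

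Among abundant hairpins with both arms in use, miR-30c had a 5p share of 82.9%, 77.8%, 80.4% and 67.0%, and miR-199a of 20.2%, 19.2%, 18.8% and 16.7%. miR-199a-3p and miR-199b-3p have the same sequence, and their levels were nearly equal in every library. miR-151, picked after its values were seen, split by replicate number and not by genotype, with a 5p share of 15.9%, 49.8%, 12.7% and 52.1%. Its 5p arm stood at 53.5, 321, 54.4 and 654.9 TPM and its 3p arm at 283, 324, 375 and 602 TPM.

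**Figure D5:**
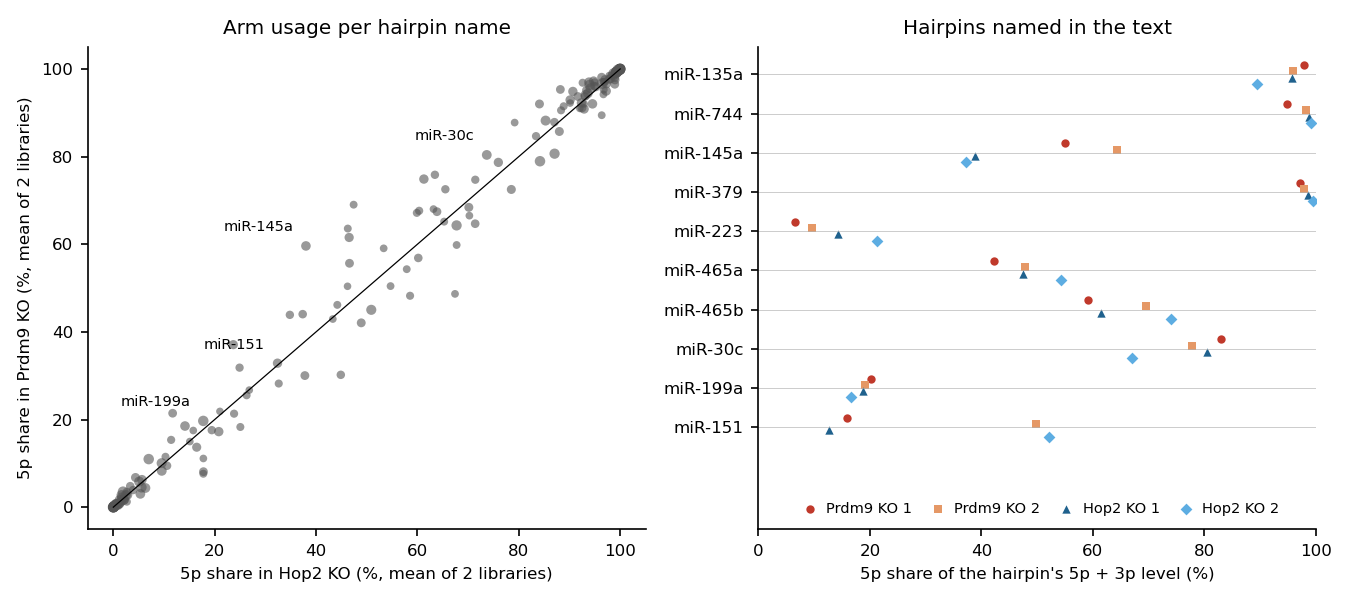
Left, 5p share in Prdm9 KO against Hop2 KO (%, means of 2 libraries) for 238 hairpin names, with larger points for higher levels and the line of equal shares. Right, 5p share by library for the hairpins named in the text, where miR-145a separates the genotypes and miR-151 the replicate numbers.

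Host genes of intronic microRNAs were read from the mRNA libraries of the same genotypes, 2 per genotype and separate from the small-RNA libraries, in the authors' TPM. Those given are examples, and other hosts that were read, such as Wdr82, Clcn5 and Nfyc, are not described. Sfmbt2 stood at 4.79, 4.69, 4.38 and 2.65 TPM, and its microRNA miR-467e-5p at 100.9, 68.3, 81.4 and 34.9 TPM. Smc4, the condensin gene that holds miR-15b and miR-16, stood at 62.1, 67.1, 58.9 and 44.9 TPM, a log2 difference of 0.32 beside 0.80 for miR-15b-5p. Mcm7, a replication helicase gene with miR-93 and miR-25 in it, stood at 64.7, 62.4, 72.0 and 64.3 TPM, while miR-93-5p had a log2 difference of 0.80 and miR-25-3p of -0.02. Egfl7, host of miR-126a, stood at 16.4, 19.2, 16.6 and 23.3 TPM, with its highest value in the library numbered Hop2 KO 2. Host and microRNA were measured in different libraries, so they are given side by side without a test.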

How the data were processed

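Small RNA of whole testis was profiled in 2 Prdm9 KO and 2 Hop2 KO libraries, grouped by the labels' genotype. The authors deposited TPM values per mature microRNA and precursor, used here as a signal, since each column sums to slightly more than TPM allows and the sums differ slightly between libraries. The submitters' processing notes name CASAVA, DESeq2 and the builds GRCm38 and mm10; an aligner or counter is named in none of the sources. The authors' deposited table of base means, log2 fold changes and p-values (adjusted p-values included) names no groups, and its signs equal those of Prdm9 KO minus Hop2 KO for 240 of 339 tested names. Its log2 values minus the differences computed here had a median of -0.40, an offset that moves signs of small differences. Gene-level TPM, deposited by the authors as a signal for mRNA libraries, served host genes; its 1 further sample column was not used.

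For each name the highest line whose precursor carries the name was kept, so reads shared by near-identical microRNAs can count under several names: miR-101c has a mean of 21554 TPM on the miR-101a precursor and 328 on its own. Of the tested names, 10 share all values with another. Names with a mean of at least 10 were tested with limma 3.58.1 (R 4.3.3) with a mean-variance trend on log2(value + 1), and arm ratios on log2((5p + 1)/(3p + 1)), with Benjamini-Hochberg adjustment at 0.05, after a check on simulated data. Fold changes on this scale understate the change of low names. Named are the 10 most abundant names, the 5 smallest p-values in each direction (no name passed), the 2 most abundant names of each list described, the 5 hairpins with the smallest p, the 5 most abundant and the 5 most balanced; further names are said to be chosen after their values were seen or illustrate a list or seed. Of 27 lists, those not described had 0 names past the threshold. Members and lists were chosen with earlier results of these data known. Alternatives changed the pseudocount, the minimum, the scaling, the choice of line, the trend and the libraries used.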

Additional observations from a re-analysis of the deposited data

How the results depend on the processing

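The count of 0 names past the threshold was the same under pseudocounts of 0.5 and 5, minimum means of 1 and 50, no minimum, median-ratio scaling, quantile normalization, summed lines and 1 name per set of equal values. It was 1, miR-135a-5p, in limma without the trend and with the replicate number as a block, where its adjusted p was 0.0427. The replicate differences of the genotypes correlated at 0.05 over 339 names, which cannot show whether the numbers pair the libraries. With the block, 23 names and 19 hairpins had an unadjusted limma p under 0.05, against 14 and 13 without it. The arm count stayed at 0. Leaving out 1 library gave from 0 to 16 names and from 0 to 10 hairpins, the upper value in each case without Hop2 KO 1, where the lone Hop2 KO library is assumed to vary like the Prdm9 KO pair. Names with an unadjusted p under 0.05 numbered 3 to 62 over the libraries left out. Of the 10 names nearest to a call, miR-99a-5p turned to -0.19 without Hop2 KO 2 and ranged up to 2.87 without Hop2 KO 1, and the other 147 of 148 alternative values kept their sign, as did all 47 of the 5 hairpins. Summed lines moved the mean share of the 10 most abundant names to 48.9% and of names with a first U from 67.0% to 61.2%. The median of a list relative to all names kept its sign in all 15 alternatives for the X-linked, miR-17-92, let-7 and Dlk1-Dio3 lists, and in 13 of 14 for the Sfmbt2 list, the exception being -0.07 without Prdm9 KO 1. The cause of these shifts was not tested. With 2 libraries per genotype, the standard errors come from the spread between libraries, and the part of depth in that spread was not tested.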

Other observations

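Hop2 KO 2 was compared with the other 3 libraries as a description, after its distance had been seen. Of the 73 names with a mean of at least 1000 TPM, it lay below all others for 36 and above all others for 15. Of the 266 tested names with a lower mean, it lay below for 147 and above for 48. Among the names with a mean of at least 1000 TPM, those furthest below were miR-99a-5p at 2369 TPM, miR-126a-3p at 1027 TPM against 2993 to 4717 TPM, miR-27a-3p at 590.2 TPM against 1572 to 2038 TPM, and miR-20a-5p at 1276 TPM against 2686 to 5415 TPM. Those furthest above were miR-148a-3p at 34524 TPM, miR-871-3p at 20590.8 TPM against 8538 to 9476 TPM, and miR-148b-3p at 3561 TPM against 1996 to 2317 TPM. Of all 339 tested names, 4 lay more than 2 log2 units from the mean of the other libraries. miR-99a-5p at -2.93 was the abundant one of them. The others were miR-215-5p at -2.98, with 8.72 TPM against 32.1, 95.1 and 140.2 TPM, miR-1843b-3p at -2.09, with 7.70 TPM against 36.7, 32.9 and 39.0 TPM, and miR-151-5p at 2.73, with 654.9 TPM against 53.5, 321 and 54.4 TPM.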
